A study of Mus musculus with 23 samples.

Results

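The inflammatory cytokines described here are the 10 genes Tnf, Il1a, Il1b, Il6, Il10, Il18, Ifng, Tgfb1, Csf1 and Lif, chosen by name, with Tnf as the cytokine that pentoxifylline is known to suppress. All 10 were found among the 56748 genes listed, of which 29064 had at least 1 count in a tumor. Gene expression was measured by RNA sequencing in 23 melanoma tumors. They grew from B16-F1 cells, a mouse melanoma line, placed under the skin of DBA/2J mice aged 6 to 8 weeks, were treated from day 6 and were collected on day 14. In 8 tumors the drugs were given into the peritoneum (IP), and CONTROL_IP, which received saline, PTX_IP, NCTD_IP and MIX_IP held 2 tumors each. In 15 tumors the drugs were injected into the tumor (IT), and CONTROL_IT, which received DMSO, NCTD_IT and MIX_IT held 4 tumors each and PTX_IT held 3. PTX is pentoxifylline at 60 mg/kg, a methylxanthine that inhibits phosphodiesterases, NCTD is norcantharidin at 3 mg/kg, a demethylated analog of cantharidin, and MIX is both drugs at these doses. Each tumor is named by its group and its number in the labels. The route was also the batch in the labels and came with its own vehicle, so that route, batch and vehicle cannot be told apart.

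Tumor necrosis factor (TNF) and interleukin-1 are the early alarm signals of macrophages and neutrophils. Their receptors switch on NF-κB in neighbouring cells, which then release chemokines and further cytokines. Interferon gamma comes from T cells and natural killer (NK) cells and activates macrophages, and IL-10 and TGF-β restrain these responses. The mRNAs of many such cytokines carry AU-rich elements in their 3′ untranslated region (UTR), where proteins such as tristetraprolin (Zfp36) bind and hasten decay. Pentoxifylline raises cyclic AMP and is used as an inhibitor of TNF production, which can act on the mRNA or on its translation, and read counts see only the former.

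The AU-rich elements are shown because they are the feature of these transcripts through which the mRNA of TNF is known to be controlled. The pentamer ATTTA and the nonamer TTATTTATT, which contains it, were counted on the transcript strand in the 3′ UTR of 1 transcript per gene (genome GRCm39, GENCODE annotation), overlapping matches included. Of 21687 protein-coding genes, 64.9% held at least 1 ATTTA and 8.02% held the nonamer, with a median of 1.17 ATTTA per kb. All 10 cytokines held at least 1 ATTTA. Tnf held 8 pentamers and 5 nonamers in 767 bases, or 10.4 pentamers per kb, and Lif was the only other member with the nonamer, with 2. Il6, Il10 and Ifng held 6 pentamers each, Il1a held 5, Il1b and Csf1 held 4, and Il18 and Tgfb1 held 1. In the windows of 30 bases below, capitals mark every ATTTA. They lie on the minus strand at chr17:35418653-35418682 for Tnf, chr2:129206721-129206750 for Il1b and chr3:107648418-107648447 for Csf1, and on the plus strand at chr10:118281238-118281267 for Ifng and chr9:50493099-50493128 for Il18.
Tnf: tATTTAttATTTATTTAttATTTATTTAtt
Il1b: ttacctATTTATTTAtgtATTTAttgattg
Ifng: ctATTTAttaatATTTAaaactATTTAtat
Csf1: aaggtcATTTAaatatctATTTAaaaaata
Il18: cgaggctgcatgATTTAtagagtaaacacg
The window of Tnf holds 5 overlapping or neighbouring pentamers and that of Il18 holds 1. A match describes the sequence and does not show that a protein bound there.

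Gene counts summed to 2861578 in the shallowest tumor and to 6702374 in the deepest. Values are CPM, that is counts divided by the TMM-scaled size of the library and put on one common scale, and 3 counts, taken as the floor of what a library can show, corresponded to between 0.448 and 1.03 CPM. Melanoma markers summed to between 16832 and 40296 CPM and were thus present in every tumor, while B cell markers did not exceed 2.39 CPM. Macrophage and monocyte markers summed to between 203 and 1810 CPM, T and NK cell markers to between 3.34 and 482 CPM and neutrophil markers to between 6.17 and 1120 CPM. The highest neutrophil value was that of NCTD_IT 18, while the other 22 tumors did not exceed 47.9 CPM. Xist, an RNA of the inactive X chromosome, lay between 5.17 and 13.6 CPM in the NCTD_IT tumors and did not exceed 0.565 CPM in the CONTROL_IT tumors. It had 0 counts in all MIX_IT tumors and lay between 1.28 and 11.6 CPM in PTX_IT, although the design text states that groups were matched by sex. Ddx3y, a gene of the Y chromosome, was at most 0.293 CPM in NCTD_IT and 0.278 CPM in PTX_IT, but between 1.03 and 8.97 CPM in CONTROL_IT and between 6.82 and 15.5 CPM in MIX_IT. Host sex, which the labels do not give per tumor, therefore cannot be told apart from the treatment where NCTD_IT or PTX_IT is compared with CONTROL_IT or MIX_IT. Among the IP tumors, CONTROL_IP 2 alone had Xist reads, at 8.24 CPM, with Ddx3y at 0.45 CPM. CONTROL_IP 1 and every treated IP tumor had 0 Xist counts and Ddx3y at 3.27 CPM or more. The 2 IP controls thus differed in these genes, and the part of sex in the IP comparisons was not tested. In bulk tumors, fewer cells of a type and less RNA per cell cannot be told apart.

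Tnf (ENSMUSG00000024401, chr17:35418357-35420983), which encodes TNF, was counted in all 23 tumors and stood highest in NCTD_IT. In CONTROL_IT it was 0.514, 7.00, 5.78 and 1.13 CPM in tumors 9 to 12, and in NCTD_IT it was 13.2, 29.0, 4.83 and 10.4 CPM in tumors 17 to 20. Of the 4 NCTD_IT tumors, 3 lay above the highest control, and the groups overlapped only through NCTD_IT 19. In PTX_IT, Tnf was 10.6 CPM in tumor 13, 10.3 CPM in tumor 15 and 0.769 CPM in tumor 16, so that 2 PTX_IT tumors lay above every control and 1 was among the lowest. MIX_IT tumors 21 to 24 held 2.35, 7.94, 0.967 and 6.32 CPM and covered nearly the same range as the controls.

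The IP groups gave Tnf at 4.26 and 4.65 CPM in CONTROL_IP, 6.87 and 1.09 CPM in PTX_IP, 2.52 and 5.71 CPM in NCTD_IP, and 10.2 and 7.56 CPM in MIX_IP. Only in MIX_IP did both tumors exceed both controls of the route. Ordered by mean CPM ± SD, Tnf was 14.3 ± 10.4 in NCTD_IT (n = 4), 8.86 ± 1.84 in MIX_IP (n = 2), 7.21 ± 5.58 in PTX_IT (n = 3), 4.45 ± 0.271 in CONTROL_IP (n = 2), 4.39 ± 3.28 in MIX_IT (n = 4), 4.11 ± 2.26 in NCTD_IP (n = 2), 3.98 ± 4.09 in PTX_IP (n = 2) and 3.61 ± 3.26 in CONTROL_IT (n = 4). Each neighbour in this order overlapped the next in range.

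**Figure D1:**
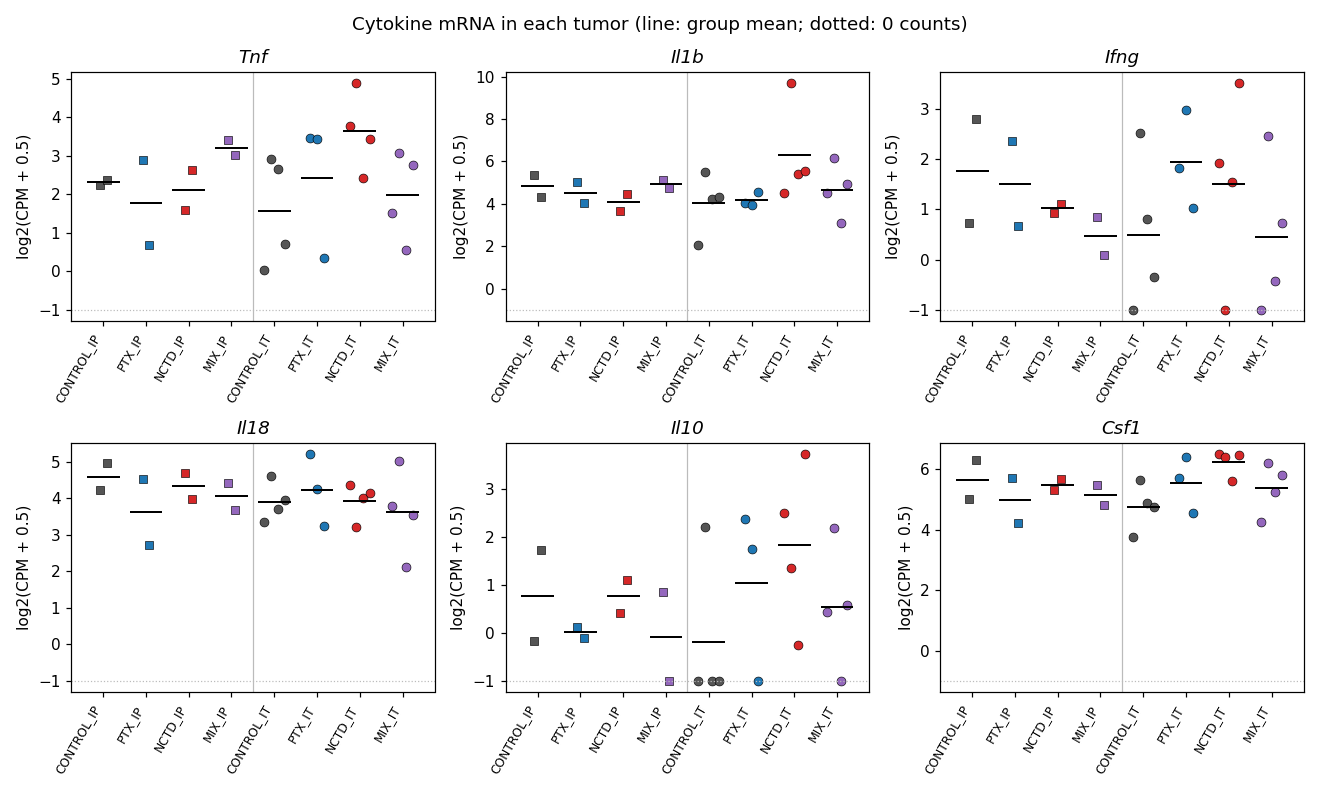
CPM of the 6 members with enough counts to be tested in the IT tumors, as log2(CPM + 0.5) on the y axis, 1 point a tumor (squares IP, circles IT), by group on the x axis; lines are group means and the dotted line is 0 counts. NCTD_IT 18 stands apart for Il1b at 825 CPM, and 3 of 4 NCTD_IT tumors lie above all CONTROL_IT tumors for Tnf and Csf1.

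The question whether PTX lowered Tnf mRNA was addressed by 4 comparisons and by MIX_IT against NCTD_IT, and none called a difference. Tests were edgeR's quasi-likelihood test over all genes that passed its filter on low counts, with Benjamini-Hochberg adjustment, and a gene was called at an adjusted p below 0.05. In PTX_IT against CONTROL_IT the log2 fold change of Tnf was 0.95 (SE 0.89, 95% interval −0.92 to 2.83, adjusted p = 0.864), and with log2 CPM of Xist as a covariate its sign turned, at −2.95 (unadjusted p = 0.156, not called). In PTX_IP against CONTROL_IP it was −0.12 (SE 0.73, −1.76 to 1.51, adjusted p = 0.996). Over all groups of a route, with NCTD as a term, Tnf differed between tumors with and without PTX by −0.50 in the IT tumors (SE 0.69, −1.95 to 0.96, adjusted p = 1) and by 0.48 in the IP tumors (SE 0.53, −0.68 to 1.64, adjusted p = 0.999). The intervals leave room for changes of either sign. The IT value of −0.50 pools PTX given alone, at 0.95 against CONTROL_IT, and PTX given beside NCTD. For the latter, MIX_IT against NCTD_IT gave −1.68 (−3.39 to 0.02, adjusted p = 0.809 in edgeR), opposite in sign and not called. Xist was higher in every PTX_IT tumor than in any CONTROL_IT tumor, but lower in every MIX_IT tumor than in any NCTD_IT tumor. Host sex therefore cannot be told apart from the treatment in either comparison, nor in their difference in sign. In the 4 comparisons named before MIX_IT against NCTD_IT, 0% of the genes tested were called, of 12480 in the IT tumors and 12424 in the IP tumors. By an unadjusted p below 0.05 there were 792 and 659 such genes for PTX_IT and PTX_IP, and 287 and 368 for PTX in the IT and IP models, with no member among them. DESeq2 in the same models called 3, 1, 1 and 1 genes, again no member.

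Against CONTROL_IT, Tnf in NCTD_IT had a log2 fold change of 1.96 (SE 0.83, 95% interval 0.21 to 3.71, unadjusted p = 0.0303, adjusted p = 0.181 in edgeR) and was not called. With each tumor of the 2 groups left out in turn, the change of Tnf stayed between 1.38 and 2.52, the lowest without NCTD_IT 18, and the adjusted p between 0.134 and 0.427. When log2 CPM of Xist was added as a covariate, the sign of Tnf turned, at −2.10 (adjusted p = 0.868). In MIX_IT against CONTROL_IT, Tnf changed by 0.28 (−1.47 to 2.02, adjusted p = 0.916), in NCTD_IP by −0.10 (−1.78 to 1.58, adjusted p = 0.999) and in MIX_IP by 1.00 (−0.62 to 2.62, adjusted p = 0.999), all by edgeR. Between treatments, the log2 fold change of Tnf in MIX_IT against NCTD_IT was −1.68 (−3.39 to 0.02, unadjusted p = 0.0525, adjusted p = 0.809 in edgeR).

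Il1b (ENSMUSG00000027398, chr2:129206490-129213059) encodes IL-1β, which must be cut by caspase-1 before it acts. In CONTROL_IT it was 3.60, 44.4, 18.1 and 19.8 CPM, and in NCTD_IT it was 22.5, 825, 42.4 and 46.3 CPM. NCTD_IT 18, with 2820 counts, stood far above all other tumors, of which MIX_IT 22 was the highest at 70.6 CPM. PTX_IT held a narrow 15.1 to 23.1 CPM, inside the range of its controls, and MIX_IT ranged from 7.98 to 70.6 CPM.

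The log2 fold change of Il1b in NCTD_IT against CONTROL_IT was 3.43 (SE 1.02, 95% interval 1.27 to 5.59, unadjusted p = 0.00385, adjusted p = 0.0745 in edgeR), the largest of any member in any comparison with a control, and was not called. Without NCTD_IT 18 it was 0.78 with an adjusted p of 0.554 (edgeR). In that tumor the neutrophil markers also summed to 1120 CPM, against 19.4 to 47.9 CPM in the other 3 tumors of its group. Most of this sum was S100a9, at 756 CPM, and S100a8, at 294 CPM. Cxcr2, Csf3r, Retnlg and Il1r2 were highest there too, at 3.81 to 29.9 CPM. Ly6g had 0 counts in every IT tumor, and Mmp8 was 1.76 CPM, inside the CONTROL_IT range of 0.771 to 2.51 CPM. DESeq2 set the p of Il1b aside as NA in this comparison. Against the control, Il1b in PTX_IT had a log2 fold change of −0.25 (−2.51 to 2.01), and in MIX_IT one of 0.60 (−1.43 to 2.62). Between treatments it was −2.84 in MIX_IT against NCTD_IT (−4.92 to −0.75, unadjusted p = 0.0108, adjusted p = 0.803) and 3.69 in NCTD_IT against PTX_IT (1.21 to 6.17, unadjusted p = 0.00607, adjusted p = 0.999), both by edgeR, and both rest on the group that holds NCTD_IT 18. In the IP tumors, Il1b lay between 12.3 and 40.1 CPM and its log2 fold changes between −0.79 and 0.04.

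Il18 (ENSMUSG00000039217), another cytokine cut by caspase-1, differed little between the mean levels of the IT groups. Its IT group means were 15.3 ± 6.08 CPM in CONTROL_IT, 21.3 ± 13.8 in PTX_IT, 15.4 ± 4.76 in NCTD_IT and 15.1 ± 12.0 in MIX_IT. The log2 fold change in NCTD_IT was 0.01 (SE 0.52, −1.08 to 1.10), in MIX_IT −0.02 (−1.10 to 1.06) and in PTX_IT 0.47 (−0.70 to 1.63), with edgeR adjusted p-values of 0.994, 0.992 and 0.899. In the IP tumors its changes lay between −0.74 in PTX_IP and −0.26 in NCTD_IP. Changes of about 1 unit on the log2 scale in either direction remain within these intervals.

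Ifng (ENSMUSG00000055170) encodes interferon gamma, the product of T and NK cells, and varied more within groups than between them. It had 0 counts in CONTROL_IT 9, NCTD_IT 18 and MIX_IT 21 and reached 10.9 CPM in NCTD_IT 20. The tumors of CONTROL_IT held 0, 5.25, 1.26 and 0.282 CPM, and those of PTX_IT 3.06, 7.39 and 1.54 CPM. NCTD_IT 18, the tumor with the most Tnf and Il1b, was thus one of those without an Ifng read. Its log2 fold change was 1.16 in PTX_IT (−1.63 to 3.95), that of NCTD_IT was 1.24 (−1.37 to 3.84) and that of MIX_IT −0.09 (−2.72 to 2.55). In the IP groups it was −0.40 in PTX_IP and −1.31 in NCTD_IP. MIX_IP 8 held 0.560 CPM, below both CONTROL_IP tumors at 1.16 and 6.44 CPM. The higher of these was CONTROL_IP 2, the IP tumor with Xist reads. The interval of MIX_IP ran from −4.35 to 0.35 (unadjusted p = 0.0866, adjusted p = 0.999 in edgeR).

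Il10 (ENSMUSG00000016529) encodes the anti-inflammatory IL-10 and was at 0 counts in 3 of the 4 CONTROL_IT tumors, while CONTROL_IT 10 held 4.15 CPM. PTX_IT held 4.73, 2.89 and 0 CPM, NCTD_IT 5.20, 2.05, 0.345 and 12.8 CPM, and MIX_IT 0.855, 4.05, 0 and 0.998 CPM. A count of 0 allows up to 3 counts, so that the low values are not distinguishable from each other. For Il10 the log2 fold change of PTX_IT was 1.18 (−1.92 to 4.29, adjusted p = 0.905), that of NCTD_IT 2.20 (−0.68 to 5.08, adjusted p = 0.363) and that of MIX_IT 0.46 (−2.43 to 3.36, adjusted p = 0.916 in edgeR). In the IP tumors Il10 did not pass the filter, with 0 to 2.85 CPM.

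Csf1 (ENSMUSG00000014599, chr3:107648364-107667785) encodes the growth factor of macrophages and had the smallest standard error of the 6 members tested in NCTD_IT against CONTROL_IT. CONTROL_IT tumors held 13.1, 49.2, 28.9 and 26.5 CPM and NCTD_IT tumors 89.0, 84.3, 48.6 and 87.0 CPM. As for Tnf, the groups overlapped only through NCTD_IT 19, which lay just below CONTROL_IT 10. PTX_IT held 51.2, 84.5 and 23.1 CPM and MIX_IT 18.4, 72.4, 37.2 and 55.2 CPM.

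In NCTD_IT against CONTROL_IT the log2 fold change of Csf1 was 1.39 (SE 0.44, 95% interval 0.45 to 2.32, unadjusted p = 0.00623, adjusted p = 0.0904 in edgeR), and it was not called. Leaving out single tumors kept Csf1 between 1.14 and 1.77 with adjusted p-values from 0.0593 to 0.233. DESeq2 called it, with an adjusted p of 0.0261 in the same model and 0.00139 with only the 2 groups, and with Xist as a covariate in edgeR the sign turned to −0.57 (adjusted p = 0.926). Csf1 changed by 0.83 in PTX_IT (−0.17 to 1.82, unadjusted p = 0.0969, adjusted p = 0.8) and by 0.63 in MIX_IT (−0.30 to 1.55, adjusted p = 0.579). In the IP groups its changes were −0.65, −0.29 and −0.61 in PTX_IP, NCTD_IP and MIX_IP, each with an interval that spans 0. CONTROL_IP 2, the IP tumor with Xist reads, held the highest Csf1 of the IP tumors, at 77.6 CPM.

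Il6, Lif, Tgfb1 and Il1a were near the floor of detection and were not tested in either route. Il6, the fever and acute-phase cytokine, had 17 counts in all over the 23 tumors, at most 3 in one, and 10 tumors had none. Lif, a cytokine of the IL-6 family, had 63 counts and 9 tumors without any. The 3 PTX_IT tumors all had 0 Lif counts, while the MIX_IT tumors held 9, 4, 2 and 7 counts. Tgfb1, the growth and matrix regulator TGF-β1, had 71 counts with 0 to 8 per tumor, and Il1a, the IL-1 that acts without cleavage, had 85 counts, of which MIX_IT 22 held 25. No fold change is given for these 4 genes, since most values were at or under 3 counts.

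**Figure D2:**
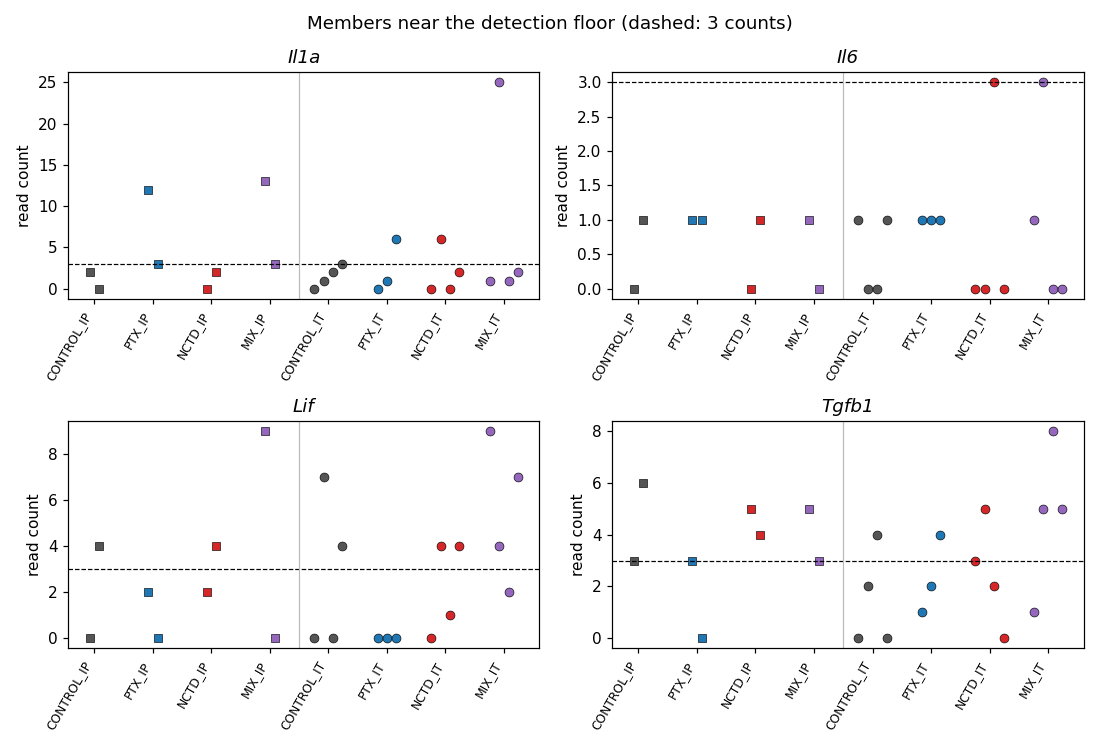
Read counts of Il1a, Il6, Lif and Tgfb1 in each tumor (y axis, counts; x axis, group; squares IP, circles IT), with the floor of 3 counts dashed. Most tumors lie at or under the floor, the 3 PTX_IT tumors have 0 Lif counts, and MIX_IT 22 has 25 Il1a counts.

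Over the whole set, 0 members were called by edgeR in each of the 15 comparisons made. In NCTD_IT against CONTROL_IT, 1.37% of the 12480 genes tested were called, and 3 of 6 members, Tnf, Il1b and Csf1, had an unadjusted p below 0.05, as had 21.6% of all genes. The 6 members all had a positive sign there, with a median log2 fold change of 1.67 beside 0.03 over all genes. With Xist as a covariate 5 of the 6 turned negative, Tnf at −2.10, Csf1 at −0.57, Il10 at −4.34, Ifng at −1.58 and Il18 at −1.31. Il1b stayed positive, and none of the 6 was called in that fit (edgeR adjusted p from 0.85 to 0.937). Xist was higher in every NCTD_IT tumor than in any CONTROL_IT tumor. The fit with it therefore cannot separate sex from treatment and does not decide whether the pattern holds. MIX_IT against CONTROL_IT gave 0% called and a median of 0.37 over the 6 members, and PTX_IT against CONTROL_IT gave 0% and a median of 0.89. In PTX_IT, too, Csf1 (−0.99), Il10 (−5.16), Il18 (−0.80) and Ifng (−1.37) turned negative beside Tnf with Xist as a covariate, and none was called. The same limit holds there, since Xist was higher in every PTX_IT tumor than in any CONTROL_IT tumor. DESeq2 in the same models called Csf1 in NCTD_IT against CONTROL_IT and no other member in the 15 comparisons. DESeq2 on only the 2 groups called Tnf (adjusted p = 0.033) and Csf1 in NCTD_IT. The 3 IT comparisons share their control tumors. The p-values measure the spread between these tumors, each of them 1 animal's tumor as far as the labels say.

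Between the IT treatments, MIX_IT against NCTD_IT gave 0.00801% of genes called and 1 member with an unadjusted p below 0.05, Il1b. The 6 members all had a negative sign, with a median log2 fold change of −1.50 beside 0.00 over all genes, but none was called, and Il18, at −0.03 (−1.12 to 1.05), turned positive in a fit that left out 1 tumor (0.28). In the same comparison 13 of 13 macrophage and monocyte markers, 10 of 10 T and NK cell markers and 5 of 5 dendritic cell markers had a negative sign (medians −0.78, −1.21 and −0.87, with 0 called), and their part in the result was not tested. Xist was lower in every MIX_IT tumor than in any NCTD_IT tumor, so that host sex cannot be told apart from the treatment there. A fit with Xist as a covariate was not run for MIX_IT against NCTD_IT. MIX_IT against PTX_IT and NCTD_IT against PTX_IT gave 0% called each, with 0 and 1 members at an unadjusted p below 0.05, the latter again Il1b. In IP the 5 members tested, with Il10 left out, had 0 unadjusted p-values below 0.05 in PTX_IP, NCTD_IP and MIX_IP, where 0% of 12424 genes were called.

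**Figure D3:**
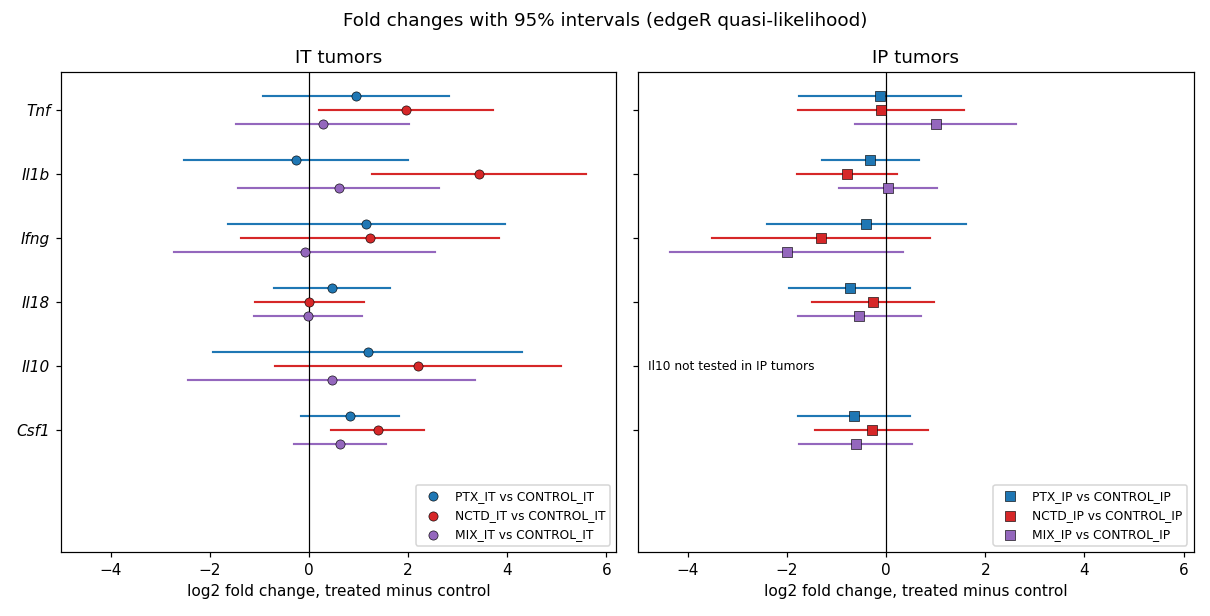
Log2 fold changes of the tested members (x axis, treated minus control of the same route; bars are 95% intervals from edgeR's quasi-likelihood fit) in the IT tumors (left) and the IP tumors (right). The intervals of Tnf, Il1b and Csf1 in NCTD_IT lie above 0, that of Tnf from 0.21, while all others, including every IP interval, span 0.

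Across routes, 7 members passed the filter in the model of all 23 tumors, Il1a among them, and none differed between IT and IP tumors beyond the spread. With the drugs as terms, Il10 had the largest difference, 1.07 on the log2 scale higher in IT (−0.70 to 2.83, adjusted p = 0.633), and Tnf differed by 0.22 (−0.85 to 1.28, adjusted p = 0.909), where 0.366% of 13395 genes were called. The NCTD effect was compared between routes as a difference of log2 fold changes, IT minus IP. It was 4.24 for Il1b (0.95 to 7.52, unadjusted p = 0.0141, adjusted p = 0.355), 1.69 for Csf1 (0.06 to 3.31, unadjusted p = 0.0429, adjusted p = 0.444) and 2.07 for Tnf (−0.78 to 4.92, adjusted p = 0.602), all by edgeR. The PTX effect on Tnf differed by 1.09 (−1.80 to 3.98) and the MIX effect by −0.69 (−3.50 to 2.11). All 3 differences use the IP controls, of which CONTROL_IP 2 alone had Xist reads. Host sex also cannot be told apart from the treatment in the IT part of those for PTX and NCTD. None of the 3 differences between routes had a gene called (0% of 13395), and Il1b and Csf1 for NCTD were the only members with an unadjusted p below 0.05. DESeq2 called 1, 77 and 4 genes for PTX, NCTD and MIX there, with no member among them.

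An exact two-sided permutation test of log2(CPM + 0.5) was run for each of the 10 members in the 6 IT comparisons. With 4 against 4 or 3 against 4 tumors the smallest p the test can give is 0.0286. It was reached once in 60 tests, by Lif in MIX_IT against PTX_IT, where PTX_IT held no Lif reads and every MIX_IT tumor held some. Without the log its exact p was 0.0571. In NCTD_IT against CONTROL_IT the exact p was 0.0571 for Csf1 and 0.0857 for both Tnf and Il1b. The IP groups of 2 cannot reach 0.05 in this test.

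Tnf, Il10, Ifng, Csf1 and Il18 followed the markers of macrophages and of T and NK cells from tumor to tumor in the IT groups. Over the 15 IT tumors, Tnf correlated with the summed macrophage and monocyte markers (Spearman's rho 0.825, permutation p = 0.00025, adjusted 0.001, and Pearson's r 0.812, permutation p = 0.00032, adjusted 0.0011). In all these relations the gene was taken as log2 CPM with a prior count of 2 and the markers as log2(summed CPM + 0.5). The r of Tnf was 0.675 without the 2 tumors farthest from the median and 0.781 after the group means were subtracted. Of 24 relations between 6 members and 4 marker lists, 12 had an adjusted p below 0.05 by rho. The tumors lowest in macrophage markers, PTX_IT 16 at 203 CPM and CONTROL_IT 9 at 232 CPM, were also those lowest in Tnf.

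Csf1 had a rho of 0.85 with the macrophage markers and 0.85 with the T and NK cell markers (permutation p = 0.00012 and 0.00015, adjusted 0.00072 for both, with r = 0.855 and 0.876, permutation p = 5e-05 and 4e-05, adjusted 0.0003 for both). Without the 2 farthest tumors these r were 0.786 and 0.805. In the 8 IP tumors its rho with the T and NK cell markers was 0.952 (permutation p = 0.00114, adjusted 0.0228 over 20 relations, with r = 0.946, permutation p = 0.00015, adjusted 0.00298, and r = 0.922 without the 2 farthest), the one IP relation past the threshold. Il10 and Ifng had a rho of 0.88 and 0.849 with the T and NK cell markers in the IT tumors (permutation p = 4e-05 and 0.00015, adjusted 0.00072 for both, with r = 0.899 and 0.821, permutation p = 2e-05 and 0.00032, adjusted 0.0003 and 0.0011). Without the 2 farthest tumors these r were 0.886 and 0.740. Il18 had a rho of 0.643 with the macrophage markers and 0.736 with the T and NK cell markers (permutation p = 0.012 and 0.00265, adjusted 0.0288 and 0.00707, with r = 0.580 and 0.691, permutation p = 0.0232 and 0.00376, adjusted 0.0428 and 0.0097), and r was 0.531 and 0.748 without the 2 farthest tumors. With the neutrophil markers, Tnf and Csf1 had a rho of 0.586 and 0.629 (permutation p = 0.0238 and 0.0141, adjusted 0.0476 and 0.0308, with r = 0.650 and 0.544, permutation p = 0.00193 and 0.0251, adjusted 0.00579 and 0.0431). Without the 2 farthest tumors these r were 0.447 and 0.532. With the group means subtracted, Csf1 fell to a rho of 0.368 and an r of 0.206, while Tnf had a rho of 0.696 and an r of 0.459. Tnf in the IP tumors had a rho of 0.5 with the macrophage markers (permutation p = 0.216, adjusted 0.54, with r = 0.756, permutation p = 0.0373, adjusted 0.186), and r was 0.254 without the 2 farthest of these 8 tumors.

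Il1b had no rho with an adjusted p below 0.05 in the IT tumors. Its r with the neutrophil markers was 0.822 (permutation p = 0.00463, adjusted 0.0101), but its rho was 0.343 (permutation p = 0.21, adjusted 0.296), and without the 2 farthest tumors r was 0.139, so that the relation rests on those tumors. Members and markers share their libraries, and the part of cell composition in the group differences was not tested. Of the 13 macrophage and monocyte markers 0 were called in NCTD_IT against CONTROL_IT, and 11 were positive with a median log2 fold change of 0.98. Of the 10 tested T and NK cell markers 0 were called and all were positive with a median of 1.84. Of the 5 tested neutrophil markers 4 were positive and 2 were called higher, with a median of 3.09. The neutrophil markers summed to 1120 CPM in NCTD_IT 18, against 19.4 to 47.9 CPM in the rest of its group. The fibroblast markers (5 of 5 tested, median 2.02), dendritic cell markers (5 of 5, median 1.81) and endothelial markers (4 of 4, median 1.29, with 1 called) were positive as well, and 7 of 8 melanoma markers were negative with 1 called lower (median −0.38). All 4 tested erythroid markers were negative too, with 0 called (median −1.77).

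**Figure D4:**
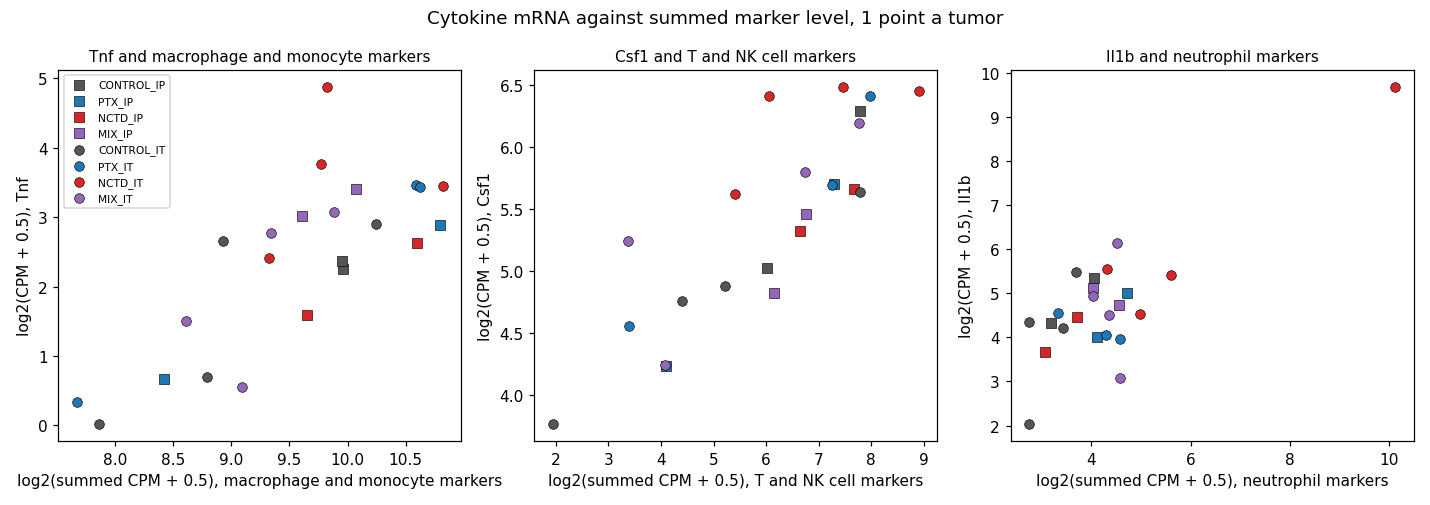
Tnf against summed macrophage and monocyte markers, Csf1 against T and NK cell markers and Il1b against neutrophil markers, as log2(CPM + 0.5), 1 point a tumor coloured by treatment (squares IP, circles IT). Tnf and Csf1 rise with their markers across the groups (rho 0.825 and 0.85 in the IT tumors), while NCTD_IT 18 alone sits at the top right for Il1b.

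The receptors, processing enzymes and target genes of these cytokines were described by lists. Over all lists edgeR called 2 genes in NCTD_IT against CONTROL_IT and 0 in PTX_IT and MIX_IT, while DESeq2 in the same model called 20, 0 and 5. Over all genes edgeR called 1.37%, or 171, in NCTD_IT, and DESeq2 called 913 there, 3 in PTX_IT and 183 in MIX_IT. List counts below are by edgeR, and are to be read against the 21.6% of all genes with an unadjusted p below 0.05 in NCTD_IT. Of the genes named below, DESeq2 called Ifngr1, Il10ra, Tnfrsf1b, Furin, Zfp36, Zfp36l1, Saa3 and Il2 in NCTD_IT and Saa3, Col1a1 and Postn in MIX_IT. Of the 18 receptors, 0 were called in NCTD_IT against CONTROL_IT, 7 had an unadjusted p below 0.05, all higher, and the median log2 fold change was 1.04 beside 0.03 over all genes. Ifngr1, the ligand-binding chain of the interferon gamma receptor, had a log2 fold change of 1.38 (adjusted p = 0.064) and Il10ra, the IL-10 receptor, one of 2.12 (adjusted p = 0.0867 in edgeR). Among the 9 tested decoys and inhibitors 0 were called and 3 had an unadjusted p below 0.05, with Tnfrsf1b, TNF receptor 2, at 2.17 (adjusted p = 0.132) and Tsc22d3, the glucocorticoid-induced leucine zipper, at 1.02 (adjusted p = 0.136 in edgeR). In PTX_IT the receptors had 0 calls and a median of 0.61, and in MIX_IT 0 calls and a median of 0.26.

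Among genes of cytokine release and decay, 0 of 18 and 0 of 12 tested were called in NCTD_IT, with 6 and 3 at an unadjusted p below 0.05, beside 21.6% of all genes. Furin, a protease that matures TGF-β, had a log2 fold change of 1.79 in NCTD_IT (adjusted p = 0.0563), and Rhbdf2, which brings the TNF sheddase ADAM17 to the surface, one of 1.39 in MIX_IT (adjusted p = 0.197). Zfp36 and Zfp36l1, which bind AU-rich elements such as those of Tnf, had log2 fold changes of 1.35 and 0.75 in NCTD_IT (adjusted p = 0.0729 and 0.0579 in edgeR).

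Of the 19 tested genes of TNF signalling and its targets, 1 was called higher in NCTD_IT, Cxcl2, a chemokine that draws neutrophils, and 9 had an unadjusted p below 0.05. Cxcl2 was 10.5, 17.1, 12.6 and 8.47 CPM in CONTROL_IT and 43.2, 1266, 79.0 and 37.8 CPM in NCTD_IT, without overlap. Its log2 fold change was 4.86 (SE 1.04, adjusted p = 0.0363 in edgeR). Without NCTD_IT 18 it was 2.13 and no longer called (adjusted p = 0.121), and the call held in 3 of the 8 fits that left out 1 tumor. In MIX_IT Cxcl2 held 38.2, 62.8, 67.9 and 18.5 CPM, all above every control, with a log2 fold change of 1.93 (adjusted p = 0.396 in edgeR). DESeq2 gave no adjusted p for Cxcl2 in NCTD_IT. With Xist as a covariate neither Cxcl2 nor Saa3, described next, was called (adjusted p = 0.841 for both).

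Of the 11 tested targets of IL-6, LIF and IL-10, 1 was called higher in NCTD_IT, Saa3, an acute-phase protein, and 7 had an unadjusted p below 0.05. Saa3 lay between 6.17 and 17.1 CPM in CONTROL_IT and was 30.5, 203, 183 and 20.2 CPM in NCTD_IT, without overlap. The log2 fold change of Saa3 was 3.01 (SE 0.68, adjusted p = 0.0423 in edgeR, and 0.00311 in DESeq2), and the call held in 1 of the 8 fits that left out 1 tumor. In MIX_IT, Saa3 lay between 48.6 and 208 CPM, again above every control, with a log2 fold change of 3.26 that edgeR did not call (adjusted p = 0.122). Among the 16 targets of interferon gamma 0 were called and 1 had an unadjusted p below 0.05 in NCTD_IT, where all 16 had a positive sign with a median of 0.64. In PTX_IT all 16 were positive as well, with a median of 0.48, and in MIX_IT 7 of the 16 were. Irf1, a transcription factor induced by interferon gamma, had a log2 fold change of 1.12 in NCTD_IT (adjusted p = 0.215) and Irgm1, a GTPase, one of −1.11 in MIX_IT (adjusted p = 0.338). Of the 11 tested TGF-β targets 0 were called and 5 had an unadjusted p below 0.05 in NCTD_IT. Col1a1 and Postn, matrix genes of fibroblasts, had log2 fold changes of 3.52 and 3.04 in MIX_IT (adjusted p = 0.122 for both in edgeR). There MIX_IT 23 held 7553 CPM of fibroblast markers, against 431 to 1597 CPM in the other 3 tumors of its group, and Col1a1 is itself one of those markers.

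Of 43 other cytokine genes, 17 passed the filter and edgeR called 0 in the 3 IT comparisons with the control, with 5 at an unadjusted p below 0.05 in NCTD_IT and 1 in PTX_IT. DESeq2 called Il2 in NCTD_IT in the same model, and Mif in PTX_IT on only the 2 groups. Mif, the macrophage migration inhibitory factor, lay between 5770 and 7258 CPM in CONTROL_IT and between 1225 and 2468 CPM in PTX_IT, without overlap, with a log2 fold change of −1.89 (SE 0.54, adjusted p = 0.758 in edgeR). Mif has many processed pseudogenes that could share its reads, which makes its count uncertain. Il2, the T cell growth factor, had a log2 fold change of −1.14 in NCTD_IT (adjusted p = 0.0764 in edgeR). It was at least 10.3 CPM in every CONTROL_IT tumor, although the T and NK cell markers of CONTROL_IT 9 summed to 3.34 CPM. Whether these Il2 reads came from T cells was not tested.

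The genes whose pattern over the 15 IT tumors was most like that of Tnf, by Spearman's rho of log2 CPM among the 12479 other genes tested, were Scarf1, a scavenger receptor (0.954), Gm36161 (0.940), Sorl1, a sorting receptor (0.939), Tmem30a, a subunit of lipid flippases (0.936), and Tbx21, the T-bet transcription factor (0.933). With the group means subtracted these values lay between 0.757 and 0.889. They were the highest of many and describe these tumors only.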

How the data were processed

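RNA from 23 tumors was sequenced from the 3′ end of polyadenylated RNA. Per the methods and the processing notes of the submitters, the authors used FastQC, Trimmomatic and STAR 2.7.11b with the genome GRCm39, and the deposited values are raw counts for each gene. The strand setting, the treatment of reads with several alignments and the use of molecular identifiers are not given in the sources used here, so that overlapping genes may share reads and the floors of 3 counts cover counting error only.

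Tests used edgeR 4.0.16 under R 4.3.3 (quasi-likelihood test, two-sided, Benjamini-Hochberg over all genes tested), with contrasts built by limma 3.58.1. Genes were kept by filterByExpr (minimum count 10, minimum total 15), and libraries were scaled by TMM. Each route had a model of its own with its 4 groups, and comparisons across routes used all 23 tumors. DESeq2 1.42.0, other scalings, no filter, other groups in the model, Xist as a covariate and leaving out each tumor were the alternatives. Log2 CPM used a prior count of 2, and single-gene permutation tests log2(CPM + 0.5) with every split enumerated. Correlations used 100000 random permutations in the IT tumors and every permutation in the IP tumors. The members and gene lists were chosen with earlier results of these data known, so that no list is independent support. The text names all members, and of each list the genes called in an IT comparison (at most 4), or otherwise the 2 with the smallest unadjusted p, and the 5 genes most like Tnf. The fits were first tested on simulated counts. The 3′ UTRs are those of the canonical transcripts in GENCODE vM39.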

Additional observations from a re-analysis of the deposited data

Results flagged for a closer look

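Among 45 values checked for a single tumor far from the rest of its group of 4, 8 had one. Chance gives about 1 in 20 where values are normally distributed, which CPM need not be, and the 8 are not independent, since some share a tumor. Il1b stood at 825 CPM in NCTD_IT 18 against 22.5 to 46.3 CPM in the other 3 tumors, and the neutrophil markers of the same tumor summed to 1120 CPM against 19.4 to 47.9 CPM. Csf1 was low in NCTD_IT 19, at 48.6 CPM against 84.3 to 89.0 CPM. Within NCTD_IT, Il6 was seen in tumor 19 alone, at 1.03 CPM or 3 counts, and within CONTROL_IT, Il10 was seen in tumor 10 alone, at 4.15 CPM. The T and NK cell markers of CONTROL_IT 10 summed to 222 CPM against 3.34 to 36.7 CPM in the other controls. Il1a was 3.89 CPM in MIX_IT 22 against 0.214 to 0.333 CPM, and the fibroblast markers of MIX_IT 23 summed to 7553 CPM against 431 to 1597 CPM.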

How the results depend on the processing

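Of 1245 values of the members under the alternatives, 99 differed in sign from the reported value, 86 of them among the 864 fits that left out 1 tumor. In 2 of the 99 the reported or the other value had an unadjusted p below 0.05, and both came from adding Xist as a covariate in NCTD_IT against CONTROL_IT, which gave −2.10 for Tnf and −0.57 for Csf1. This covariate cannot separate sex from treatment in NCTD_IT or PTX_IT against CONTROL_IT. With it 5 of 6 members turned negative in NCTD_IT and 5 of 6, Tnf among them at −2.95, in PTX_IT. The number of members called in that comparison, 0 as reported, was 1 by DESeq2 in the same model (Csf1), 2 by DESeq2 on only the 2 groups (Tnf and Csf1), 1 by edgeR on only the 2 groups (Csf1, adjusted p = 0.0336), 1 by edgeR with 8 groups (Il1b, adjusted p = 0.0355) and 3 with no filter on low counts (Tnf, Il1b and Csf1). With no filter, members called rose from 0 to 1 in MIX_IT against NCTD_IT, in NCTD_IT against PTX_IT and for PTX in the IT tumors (Il1b in each), and to 2 for the NCTD effect between routes (Il1b and Csf1). List genes called with no filter were 13, 43 and 12 in PTX_IT, NCTD_IT and MIX_IT, against 0, 2 and 0, and in NCTD_IT they were 20 and 26 by DESeq2 in the same model and with 2 groups, 17 and 9 by edgeR with 2 and 8 groups and 0 with Xist. Without the log, members with an exact permutation p below 0.05 in MIX_IT against PTX_IT went from 1 to 0. Leaving out any 1 tumor called 0 members in every comparison. The cause of these differences was not tested.

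The genes called in NCTD_IT against CONTROL_IT, 171 as reported, numbered 913 and 1380 by DESeq2 in the same model and with 2 groups, 946 and 777 by edgeR with 2 and 8 groups, 1190 with no filter, 0 with Xist as a covariate, and between 0 and 191 without single tumors (0 without CONTROL_IT 11, CONTROL_IT 12 or NCTD_IT 18, 1 without CONTROL_IT 9 or NCTD_IT 17, and 71 without NCTD_IT 19). Those of MIX_IT against CONTROL_IT, 0 as reported, were 183 and 230 by DESeq2, 364 with no filter, 9 with 8 groups and 15 with Xist. Those of PTX_IT were 3 and 15 by DESeq2 and 222 with no filter, and those between routes, 49 as reported, were 287 by DESeq2, 400 with no filter and 1 to 78 without single tumors. In the other comparisons, with 0 or 1 called, DESeq2 in the same model called between 0 and 77 and the fits with no filter between 45 and 283. The rho values of Scarf1 and Tmem30a with Tnf fell most when group means were subtracted, to 0.757 and 0.782. No paired analysis was possible because each tumor has a number of its own. Depth limited Il6, Lif, Tgfb1 and Il1a, which were mostly at or under 3 counts.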
